A study of Drosophila melanogaster with 12 samples.

Results

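Cytosolic ribosomal protein genes were examined as sources of small RNAs bound to Piwi in a Drosophila cell line. The members were the genes whose FlyBase symbol is RpL or RpS followed by a digit, or RpLP0, RpLP1, RpLP2 or sta, with a level of at least 1 RPM in at least 3 libraries. RPM are reads of a gene scaled to the total reads of its library. This symbol rule took in 92 of the 17469 genes in the table, and 85 of them passed the level filter, 49 of the large and 36 of the small subunit. The other 7 were RpL7-like, RpL10Aa, RpL22-like, RpL37-2, RpS10a, RpS28a and RpS28-like. No measured change entered the choice of the 85. They are set against the 8246 genes that passed the same filter.

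The cells were OSC, a line derived from the somatic cells of the Drosophila ovary. Endogenous Daed or Armi was depleted with siRNA, siRNA and a rescue plasmid were given after 48 h, and the cells were harvested 48 h later. The Daed knockdown carried Flag-tagged Daed, either wild type (the Daed WT group) or deltaSAM, which lacks the SAM domain (the deltaSAM group). The Armi knockdown carried Flag-tagged Armi, either wild type (the Armi WT group) or the variant labelled KEE (the KEE group). Each of the 4 groups held 3 libraries, all of them came from 1 cell line, and the 12 include no knockdown left without a rescue plasmid. RNA of 20 to 40 nucleotides was taken from Piwi immunoprecipitates, and ribosomal RNA was removed from the libraries. Whether the replicates came from separate cultures is not stated, and a p-value given here therefore reflects no more than the spread among these libraries, which may be technical.

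A ribosomal protein gene encodes a structural protein of the large or small ribosomal subunit, and the subunits need these proteins in matched amounts. Loss of a copy of many of these genes gives the Minute phenotype of Drosophila, with slow growth and short bristles. Somatic ovarian cells load Piwi with PIWI-interacting RNAs (piRNAs) cut from transposon-rich loci and also from the messenger RNAs of some genes, and Armi and Daed act in the step that takes place at the mitochondrial surface. The reads described here are small RNAs assigned to each gene and do not measure its messenger RNA or protein.

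The libraries held 1396369 to 3995009 reads. In a library 1 read was worth 0.250 to 0.716 RPM, and 3 reads, taken as the floor of detection, were worth 0.751 to 2.15 RPM, which covers counting error only. Reads assigned to genes made up 50.2% ± 0.813 (SD, n = 3) of the Daed WT libraries, 58.0% ± 0.598 of deltaSAM, 63.4% ± 1.32 of Armi WT and 79.5% ± 0.251 of KEE. Replicate 3 of the deltaSAM group and replicate 3 of the Armi WT group stood apart, with a chi-square per degree of freedom over genes of 4.18 to 5.15 against the other libraries of their group, where all other replicate pairs gave 1.18 to 2.05. Levels of the markers varied within each list. Of the somatic markers, tj had group means of 7791 to 16230 RPM and Fas3 of 4.8 to 88.8, and flam had no match under that symbol. Of the germline markers, vas had group means of 0.174 to 2.22 RPM, aub of 5.09 to 7.09, gcl of 11.6 to 26.7 and pgc of 103 to 354. The germline list as a whole summed to 366 to 420 RPM in Daed WT, 236 to 280 in deltaSAM, 308 to 369 in Armi WT and 146 to 162 in KEE, most of it from pgc, and its part in the results was not tested. Small RNAs from daed and armi do not measure the knockdown, since the rescue plasmids carry the same genes. Levels of daed ran from 27.6 to 32.3 RPM in libraries of the Daed knockdown and from 2.61 to 6.76 in those of the Armi knockdown, and levels of armi from 161 to 310 and from 857 to 1582.

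Ribosomal protein genes gave more Piwi-bound reads than the typical gene, but none was among the very strongest. By mean RPM over the 12 libraries RpL11 was the highest of them and lay above 94.8% of the tested genes. That mean includes its rises in the variant groups. In the WT groups RpS10b was higher, with 171 RPM in Daed WT and 198 in Armi WT, against 131 and 146 for RpL11. Their median level over the 12 libraries was 47.4 RPM (interquartile range 22.0 to 78.2), against 8.16 over all tested genes. They are short, with a median gene span of 1361 bases including introns, against 2778 for all tested genes. Per kilobase of span the median level was 30.6 RPM, against 2.99. The highest over the 12 libraries was RpL11 with 197 RPM per kilobase, followed by RpL15 with 105, RpL21 with 102, RpL38 with 101 and RpS15 with 100.4. RpL11, which with RpL5 and the 5S ribosomal RNA forms a separate particle of the large subunit, stood above 99.0% of all tested genes by that mean. Its lead came from the variant groups. Per kilobase it had 88.3 RPM in Daed WT and 98.3 in Armi WT, below RpS15 with 111 and 101, and 203 in deltaSAM and 397 in KEE. Among the lowest were RpS19b with 1.61 RPM per kilobase and RpS15Ab with 1.69, both second copies of another member. The 2 groups rescued with wild-type protein gave like levels. The ratio of Armi WT to Daed WT had a median of 0.985 over the members and lay within 1.5-fold in 73 of 85, with the lowest values at 0.586 for RpL10Ab and RpS14b. No test was made between these groups, as the knockdown and the wild-type rescue differ together.

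The summed level of the 85 genes was 4315 RPM ± 74.7 (SD, n = 3) in Daed WT and 3974 ± 164 in deltaSAM, and it was 4426 ± 163 in Armi WT and 6555 ± 181 in KEE. No deltaSAM library reached the lowest Daed WT library, and every KEE library lay above every Armi WT library. Because RPM are shares of a whole library, the same sums were also taken as a share of gene reads. That share was 0.860% ± 0.0057 in Daed WT, 0.685% ± 0.036 in deltaSAM, 0.699% ± 0.041 in Armi WT and 0.824% ± 0.024 in KEE, so the order within each experiment was the same on both scales. The sums were also taken without RpL11, the member with the highest mean over the 12 libraries. RpL11 rose with both variants, so leaving it out moves both changes downward by construction. The sum of all 85 fell by 7.9% with deltaSAM and the sum without RpL11 fell by 12.2%. With KEE the sums rose by 48.1% and 39.4%. Without RpL4, which had the largest fall with deltaSAM, the sum fell by 5.5% with deltaSAM and rose by 49.4% with KEE.

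Change was tested with limma-trend on log2(RPM + 1), all 12 libraries in 1 fit, with Benjamini-Hochberg adjustment over the 8246 genes and a threshold of 0.05. Every adjusted p below is from this fit unless another tool is named, and log2 changes are on the log2(RPM + 1) scale, which understates the change of low genes. The median gene of the table lay at -0.10 with deltaSAM and at 0.30 with KEE, and the members should be read against those shifts.

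With deltaSAM 13 members rose and 27 fell, where 17.3% of all tested genes rose and 18.9% fell. The members' median log2 change was -0.21 against -0.10 for all tested genes, and the values ran from -1.61 (RpL4) to 1.19 (RpL11). The libraries of the groups did not overlap for 15 members that were higher with deltaSAM and 25 that were lower, against 19.1% and 21.5% of all tested genes. With KEE 50 members rose and 4 fell, where 33% of all tested genes rose and 11.7% fell. The median was 0.51 against 0.30, and the range ran from -0.88 (RpS23) to 2.11 (RpL24). Non-overlapping libraries were found for 51 members higher with KEE and 4 lower, against 41.6% and 16.5%. The KEE change exceeded the deltaSAM change for 47 members and fell short of it for 5, where 29.4% and 11% of all tested genes did so.

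**Figure D1:**
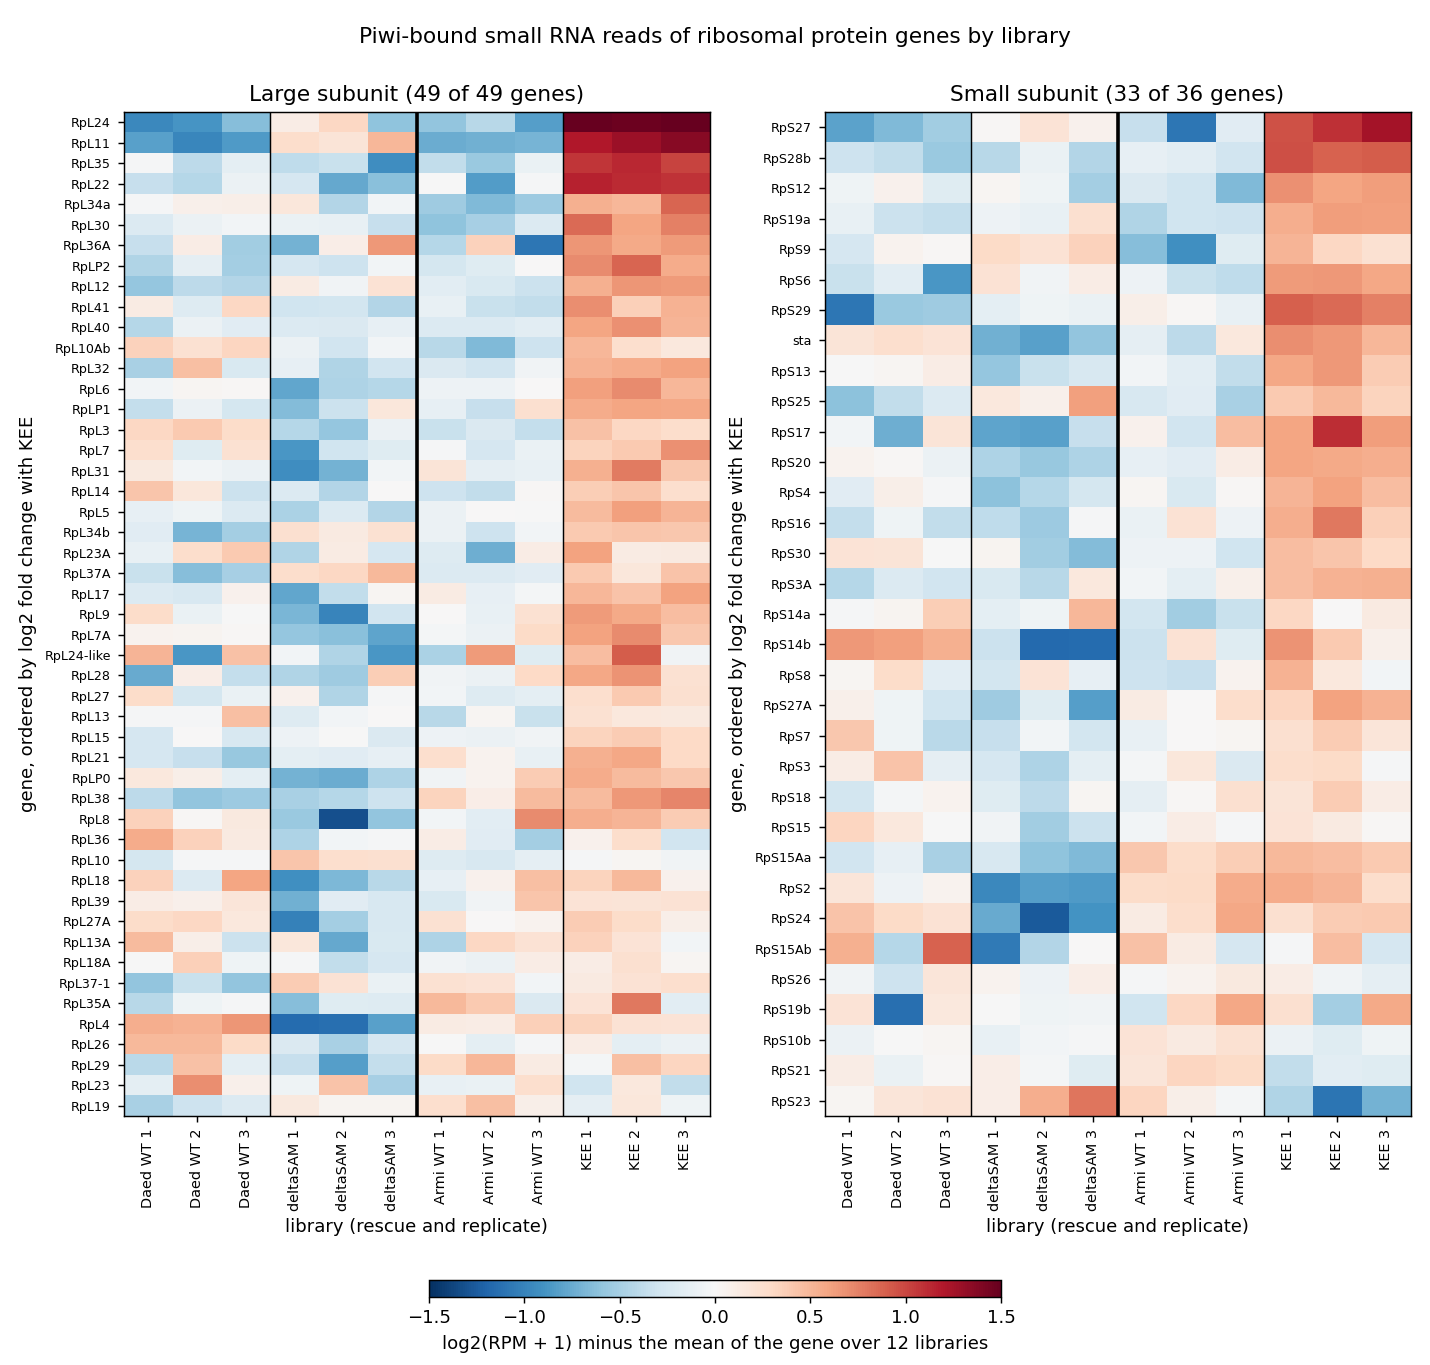
Heat map of log2(RPM + 1) for each member in each library, minus the mean of that gene over the 12 libraries, with 49 large subunit genes on the left and 33 of the 36 small subunit genes on the right, ordered by their log2 change with KEE. Red is above and blue below the mean of the gene, and values beyond the ends of the scale take the end colours. The KEE columns are red for most rows, with RpL24 and RpL11 at the top left and RpS27 at the top right, and RpS23 and RpS21 are blue there.

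These splits moved with the scaling of the libraries. Among called members, rises made up 32.5% with deltaSAM on deposited RPM, 18.8% with RPM scaled to the gene-table total, 58.3% after centring each library on its median gene, 47.1% with edgeR and trimmed mean (TMM) factors and 43.8% with DESeq2. With KEE they made up 92.6% on deposited RPM, 78.6% on the gene-table total, 73.3% centred, 72.2% with TMM factors and 60.0% with DESeq2. The shares of all genes tested in each setting moved too. These genes numbered 9249 on the gene-table total, and with DESeq2 7285 for deltaSAM and 7925 for KEE. Shares given further on for the calls of both comparisons taken jointly use 8246 genes with DESeq2. With deltaSAM 10.4% rose and 25.6% fell on the gene-table total, and 24.7% and 11.2% did centred. The values were 18.3% and 12.7% with TMM factors and 17.9% and 11.6% with DESeq2. With KEE the pairs were 18.3% and 15.0%, 20.2% and 20.4%, 25.2% and 22.0%, and 19.4% and 21.1%, in that order. Called the same way under all 6 scalings and tests tried were 9 rises and 15 falls with deltaSAM, and 18 rises and 4 falls with KEE. These are 10.6%, 17.6%, 21.2% and 4.71% of the members, where 10.7%, 9.17%, 18.5% and 11.7% of all tested genes were called so. RpL11, RpL24 and RpS27 are among the rises in both comparisons, and RpL4 and sta are among the falls with deltaSAM.

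RpL11 rose with both variants and had the largest rise with deltaSAM of the 85. It is FBgn0013325, at chr2R:19442342-19443825 in dm6. Its level was 137, 122 and 134 RPM in the Daed WT libraries and 289, 275 and 341 in deltaSAM, and it was 144, 146 and 148 in Armi WT and 555, 590 and 623 in KEE. Each variant group lay clear of its WT group. The log2 change was 1.19 with deltaSAM (SE 0.09, adjusted p = 3.16e-11) and 2.00 with KEE (SE 0.09, adjusted p = 8.83e-17). The KEE change was larger by 0.81 (SE 0.13, adjusted p = 8.16e-06), a call lost after centring, at 0.25, and with DESeq2, at 0.31. Its partner RpL5, which spans a longer gene, had 147, 153 and 139 RPM in Daed WT, 115, 138 and 118 in deltaSAM, 151, 160 and 159 in Armi WT and 222, 245 and 229 in KEE. RpL5 rose with KEE by 0.56 (adjusted p = 1.3e-05), a call lost on the gene-table total, at 0.24, after centring, at 0.21, and with DESeq2, at 0.14. With deltaSAM its log2 change was -0.24 (adjusted p = 0.0451), a call that was lost in 16 of 24 alternatives.

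RpL24, which joins the large subunit late in its assembly, had the largest rise with KEE. It is FBgn0032518 at chr2L:13393687-13395131. Its level was 54.5, 57.9 and 68.8 RPM in Daed WT and 116, 134 and 70.7 in deltaSAM, so the lowest deltaSAM library, replicate 3, lay just above the highest WT library. In Armi WT it was 71.3, 80.5 and 60.3 RPM, and in KEE 306, 301 and 315, more than any WT library. The log2 change was 0.77 with deltaSAM (SE 0.15, adjusted p = 0.000201) and 2.11 with KEE (SE 0.15, adjusted p = 1.3e-12). Its span shares 273 bases with CG7099, and the sources used here do not say whether the counting used strand. CG7099 went from 17.0 to 29.9 RPM with deltaSAM (adjusted p = 0.0039) and from 10.96 to 12.6 with KEE (adjusted p = 0.493). Reads from the shared bases cannot be told apart.

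RpS27, a zinc-binding protein of the small subunit, also rose with both variants. It had 16.8, 18.8 and 20.8 RPM in Daed WT and 30.6, 34.8 and 31.5 in deltaSAM, and 23.5, 13.7 and 26.7 in Armi WT against 59.5, 65.5 and 73.1 in KEE. Both variant groups lay above their WT group in every library. The log2 change was 0.75 with deltaSAM (adjusted p = 0.0015) and 1.63 with KEE (adjusted p = 8.1e-09). In all, 9 members rose with both variants, which is 10.6% of the 85, against 9.18% of all tested genes and 18.0% of genes of like mean RPM, so the count stood near or below the background. They were RpL11, RpL12, RpL24, RpL34b, RpL37A, RpS6, RpS25, RpS27 and RpS29. RpL37A had log2 changes of 0.84 and 0.53, RpS25 of 0.68 and 0.70, RpS29 of 0.62 and 0.83, and RpL12 of 0.57 and 0.85. The KEE calls of RpL34b and RpL37A were lost on the gene-table total, centred, with TMM factors and with DESeq2, at 0.12 to 0.25. The KEE call of RpS25 was lost in these settings other than TMM, at 0.29 to 0.38. RpS6, the protein phosphorylated by S6 kinase in TOR signalling, had 48.4, 54.6 and 32.9 RPM in Daed WT and 71.1, 58.8 and 66.3 in deltaSAM, and its call with deltaSAM (0.55, adjusted p = 0.00369) was lost without replicate 3 of Daed WT and on the gene-table total, where the change was 0.34 in both. With KEE it rose by 0.89 (adjusted p = 6.53e-06).

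RpL4, whose extension lines the exit tunnel of the large subunit, had the largest fall with deltaSAM. It is FBgn0003279 at chr3R:27922821-27924888. Its level was 165, 162 and 178 RPM in Daed WT and 50.0, 50.6 and 63.5 in deltaSAM, and every deltaSAM library lay well below every WT library. The log2 change was -1.61 (SE 0.11, adjusted p = 2.74e-12), and only 90 of the 8246 tested genes lay lower. In the Armi knockdown it had 122, 121 and 144 RPM with WT and 142, 130 and 129 with KEE, and these libraries overlapped. The KEE value was 0.05 (adjusted p = 0.735), and in 3 other settings it was called lower, at -0.30 after centring, -0.29 with TMM factors and -0.37 with DESeq2.

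Other members also fell with deltaSAM and were not called with KEE on deposited RPM. RpS24 of the small subunit had 71.9, 65.1 and 62.3 RPM in Daed WT and 31.2, 21.8 and 28.2 in deltaSAM, a log2 change of -1.28 (adjusted p = 2.59e-08). With KEE it had 63.2, 70.1 and 70.6 RPM against 58.0, 64.2 and 80.6 in Armi WT, and it was called lower with TMM factors, at -0.32, and with DESeq2, at -0.41. RpS2, which lies near the entry of the messenger RNA channel, had 108, 90.5 and 98.8 RPM in Daed WT and 48.2, 53.4 and 52.5 in deltaSAM (-0.93, adjusted p = 1.48e-07). With KEE RpS2 was called lower after centring, at -0.28, with TMM factors, at -0.27, and with DESeq2, at -0.35. RpL8, a protein near the peptidyl transferase centre, changed by -0.99, RpL18 by -0.91, RpL27A by -0.83 and RpL26 by -0.74 with deltaSAM, with adjusted p from 2.4e-05 to 0.00122. In all 12 members fell with deltaSAM and were not called with KEE, which is 14.1%, against 9.36% of all tested genes and 6.62% of genes of like mean RPM. On the gene-table total the count was 31, or 36.5%, against 14.7% of all genes tested in that setting. RpL8 was called higher with KEE without replicate 3 of Armi WT, at 0.58, and RpS15, also one of the 12, was called lower there with DESeq2, at -0.32. RpS3 was among them at -0.42 (adjusted p = 0.0205), a call lost in 6 of 24 alternatives, with -0.21 after centring and -0.28 without replicate 2 of Daed WT.

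A total of 15 members fell with deltaSAM and rose with KEE, which is 17.6% of the 85, against 5.32% of all tested genes and 9.61% of genes of like mean RPM. They were RpL3, RpL5, RpL6, RpL7, RpL7A, RpL9, RpL10Ab, RpL31, RpLP0, RpS4, RpS13, RpS20, RpS27A, RpS30 and sta. The count was 14 with edgeR on library sizes, 7 on the gene-table total, 5 with TMM factors, 4 after centring and 2 with DESeq2, where 5.18%, 4.46%, 2.37%, 1.64% and 1.63% of all genes tested in that setting had this pair of calls. Only sta was called both ways in all 6 settings. The most abundant of those with a large change both ways was sta, the fly counterpart of the mammalian laminin receptor protein RPSA, at chrX:1481797-1483413 (FBgn0003517). Its level was 127, 133 and 129 RPM in Daed WT and 67.0, 62.6 and 73.4 in deltaSAM, and 102, 84.4 and 125 in Armi WT and 181, 176 and 158 in KEE. The deltaSAM libraries lay below and the KEE libraries above all of their WT libraries. The log2 change was -0.93 with deltaSAM (SE 0.12, adjusted p = 2.77e-07) and 0.74 with KEE (SE 0.12, adjusted p = 4.62e-06).

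RpL3, which reaches towards the peptidyl transferase centre, had 132, 139 and 128 RPM in Daed WT and 78.8, 70.8 and 99.4 in deltaSAM. It had 84.1, 90.8 and 82.5 RPM in Armi WT and 144, 132 and 127 in KEE, so neither pair of groups overlapped. Its log2 changes were -0.69 (adjusted p = 1.76e-05) and 0.64 (adjusted p = 2.21e-05). RpL7A changed by -0.70 and 0.51, RpL9 by -0.71 and 0.52, and RpS20 by -0.49 and 0.63. The KEE calls of RpL3 and RpS20 were lost with DESeq2, at 0.23 and 0.21. Those of RpL7A and RpL9 were lost there, on the gene-table total, centred and with TMM factors, at 0.09 to 0.19. On deposited RPM 0 members fell with both variants, and 0 did with edgeR on library sizes, where 4.21% and 4.38% of all tested genes did. RpS10b did on the gene-table total, RpL4 and RpS2 did after centring, RpL4, RpS2 and RpS24 with TMM factors, and these with RpS15 with DESeq2. These are 1.18%, 2.35%, 3.53% and 4.71% of the members, against 6.42%, 4.01%, 5.11% and 4.47% of all genes tested in that setting.

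The 4 members that fell with KEE were all of the small subunit. RpS23, a protein of the decoding centre, had 51.5, 43.7 and 40.3 RPM in Armi WT and 29.7, 18.7 and 24.8 in KEE (-0.88, adjusted p = 7e-05), with no overlap. RpS21 changed by -0.50 (adjusted p = 0.000653). RpS10b, the most abundant small subunit member, had 199.8, 190 and 203 RPM in Armi WT and 163, 152 and 165 in KEE (-0.30, adjusted p = 0.00571).

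**Figure D2:**
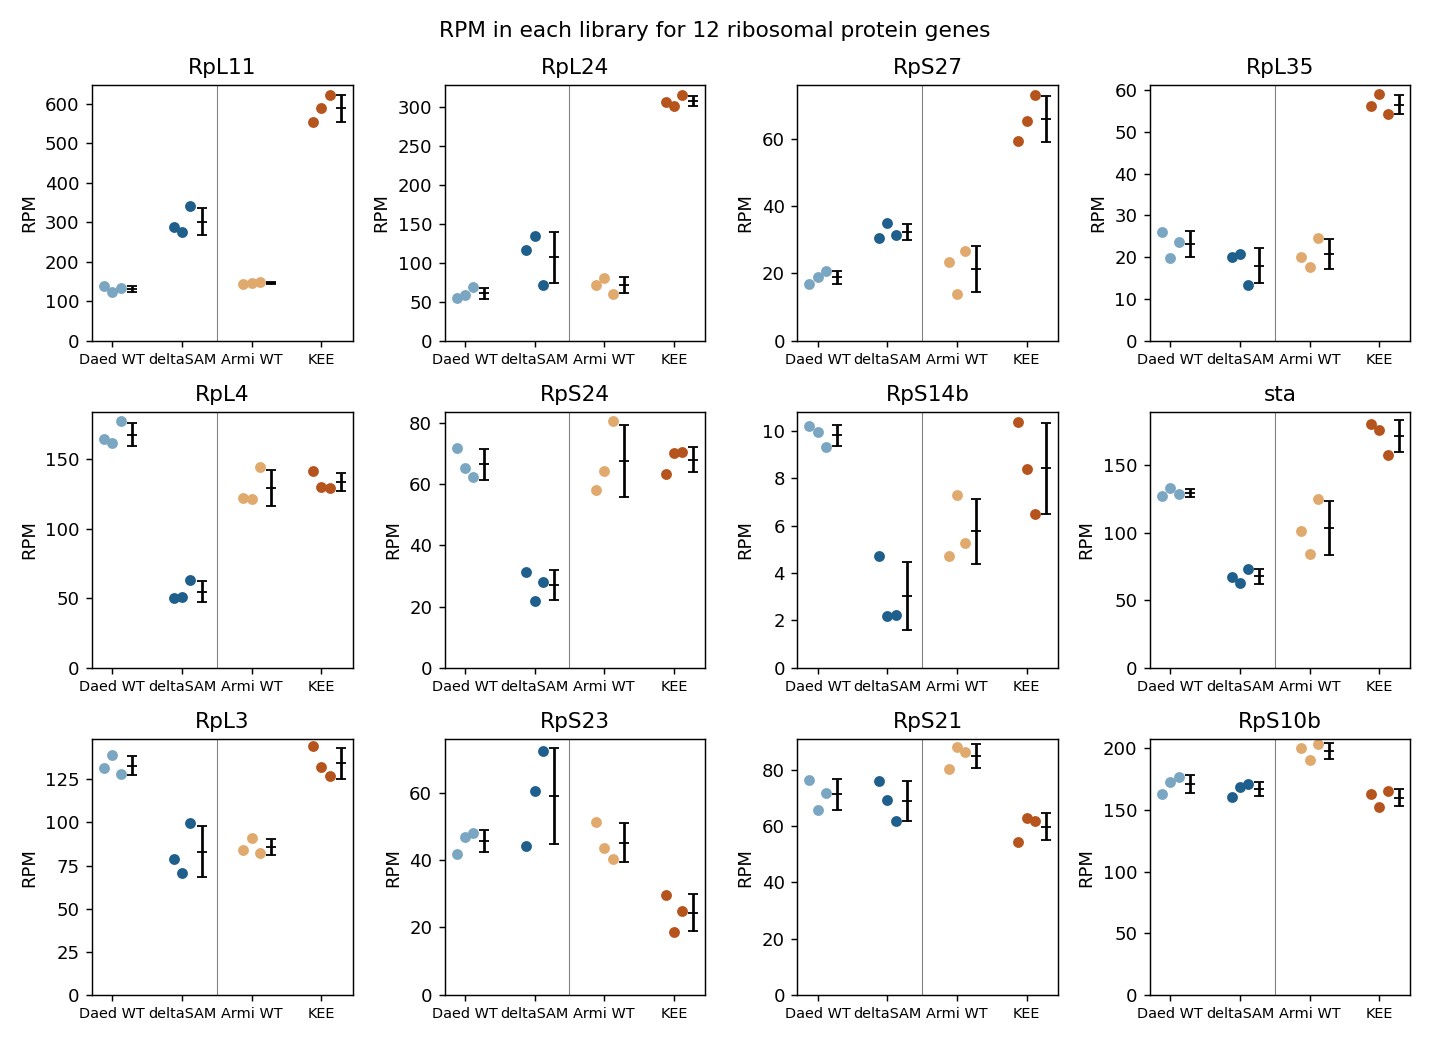
RPM in each library for 12 members, with 3 libraries as points and their mean with SD as the black mark for each of the 4 groups; each panel has its own axis, which starts at 0. RpL11, RpL24 and RpS27 are higher with both variants, RpL4, RpS24 and RpS14b are lower with deltaSAM, sta and RpL3 move in opposite directions, and RpS23, RpS21 and RpS10b are lower with KEE.

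A further 26 members rose with KEE and were not called with deltaSAM, which is 30.6%, against 18.5% of all tested genes and 25.3% of genes of like mean RPM. The count was 31 with edgeR on library sizes, 12 with TMM factors, 10 on the gene-table total, and 9 after centring and with DESeq2, where 23.3%, 15.0%, 9.80%, 9.20% and 10.99% of all genes tested in that setting had these calls. RpL35, which sits at the exit of the tunnel, had 20.1, 17.6 and 24.5 RPM in Armi WT and 56.3, 59.0 and 54.3 in KEE, a log2 change of 1.42 (SE 0.17, adjusted p = 6.56e-08). Its deltaSAM value was -0.37 (adjusted p = 0.104), and -0.17 without replicate 3 of deltaSAM. RpL22 had 9.93, 5.14 and 9.79 RPM in Armi WT and 23.4, 22.7 and 22.3 in KEE (1.41, adjusted p = 2.09e-05). The KEE libraries of RpL35 and RpL22 lay above all Armi WT libraries. The span of RpL22 holds the whole of the long noncoding RNA gene CR42491, 1196 bases. CR42491 had 3.57 RPM in Armi WT and 6.80 in KEE (0.84, adjusted p = 0.0239), and reads from the shared bases cannot be told apart. RpL34a rose by 1.21, RpL30 by 1.17, RpS28b by 1.11 and RpS12 by 1.02, with adjusted p from 7.92e-09 to 2.85e-05. RpS12 is known in Drosophila for its part in cell competition, where it acts upstream of Xrp1. RpL36A rose by 1.01 (adjusted p = 0.0277) at 2.35, 4.71 and 1.13 RPM in Armi WT and 6.11, 5.68 and 6.01 in KEE. That call was lost in 11 of 23 alternatives, and the change was 0.66 without replicate 3 of Armi WT.

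The P stalk of the large subunit, which recruits elongation factors, is built on RpLP0 with RpLP1 and RpLP2. RpLP0 had 122, 116 and 98.1 RPM in Daed WT and 66.4, 64.8 and 79.0 in deltaSAM, and it fell by 0.67 on the log2 scale (adjusted p = 4.81e-05). In Armi WT it had 105, 113 and 143 RPM and in KEE 161, 151 and 145, a change of 0.35 (adjusted p = 0.017). That call was lost without replicate 1 or 2 of Armi WT or replicate 1 of KEE, on the gene-table total and with TMM factors. The change was -0.08 with DESeq2 and -0.0035 centred on the median gene, and RpLP0 was not called there. RpLP1 had 18.3, 15.4 and 23.7 RPM in Armi WT and 29.7, 30.6 and 30.3 in KEE (0.65, adjusted p = 0.00772), a call lost without replicate 2 of Armi WT, at 0.51, and on the gene-table total, centred, with TMM factors and with DESeq2, at 0.23 to 0.34. RpLP2 had 36.6, 39.0 and 44.4 against 73.0, 82.0 and 65.8 (0.86, adjusted p = 6.59e-06). With deltaSAM RpLP1 gave -0.03 (adjusted p = 0.929) and RpLP2 gave 0.16 (adjusted p = 0.391). The stalk base was thus the stalk member that fell with deltaSAM, while all 3 rose with KEE on deposited RPM.

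RpL40 and RpS27A are made as fusions with ubiquitin. RpL40 had 41.3, 41.1 and 42.6 RPM in Armi WT and 72.5, 77.4 and 68.1 in KEE, a log2 change of 0.79 (adjusted p = 5.55e-06), with 0.05 for deltaSAM (adjusted p = 0.809). RpS27A changed by -0.42 with deltaSAM (adjusted p = 0.0231) and by 0.35 with KEE (adjusted p = 0.0462). The first was lost in 9 of 24 alternatives, with -0.26 without replicate 3 of deltaSAM. The second was lost in 10 of 24 with its sign kept. It was not called with DESeq2 either, where the sign turned, at -0.06. The span of RpS27A also holds the gene Ip259, which had 8.67 RPM in Armi WT and 15.7 in KEE (log2 change 0.79, adjusted p = 0.0074).

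Of the 92 genes, those that share a subunit number with another form 12 families, and 18 members belong to them. In 6 families both copies passed the filter. RpS14a at chrX:7933742-7934677 and RpS14b at chrX:7934898-7935792 are near-identical neighbours, so the split of reads between them is uncertain. RpS14b had 10.2, 9.93 and 9.31 RPM in Daed WT and 4.70, 2.18 and 2.21 in deltaSAM (-1.48, adjusted p = 0.000169). RpS14a had 27.0, 28.1 and 35.8 against 24.7, 26.1 and 39.2 (-0.03, adjusted p = 0.905), with overlapping libraries. With KEE the values were 0.48 for RpS14b (adjusted p = 0.189) and 0.53 for RpS14a (adjusted p = 0.0132), the latter lost without replicate 2 of Armi WT, at 0.46, without replicate 1 of KEE, at 0.45, and in 4 other scalings, at 0.12 to 0.22. RpL34a and RpL34b both rose with KEE, by 1.21 and 0.56, the latter a call lost without replicate 2 of Armi WT, at 0.47. RpL34b alone of the pair was called with deltaSAM, at 0.66 (adjusted p = 0.00553), against -0.15 for RpL34a (adjusted p = 0.621), and the difference between the copies was not tested. The second copies RpS15Ab and RpS19b had group means of 0.550 to 1.82 RPM, where the floor of 3 reads lay at 0.751 to 2.15 RPM by library. RpS19a rose with KEE, with means of 81.7 and 159 RPM (0.95, adjusted p = 2.04e-08). RpL24-like, which encodes a counterpart of the yeast assembly factor Rlp24 in place of a ribosomal protein, had group means of 1.13 to 3.00 RPM and was called in neither comparison.

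**Figure D3:**
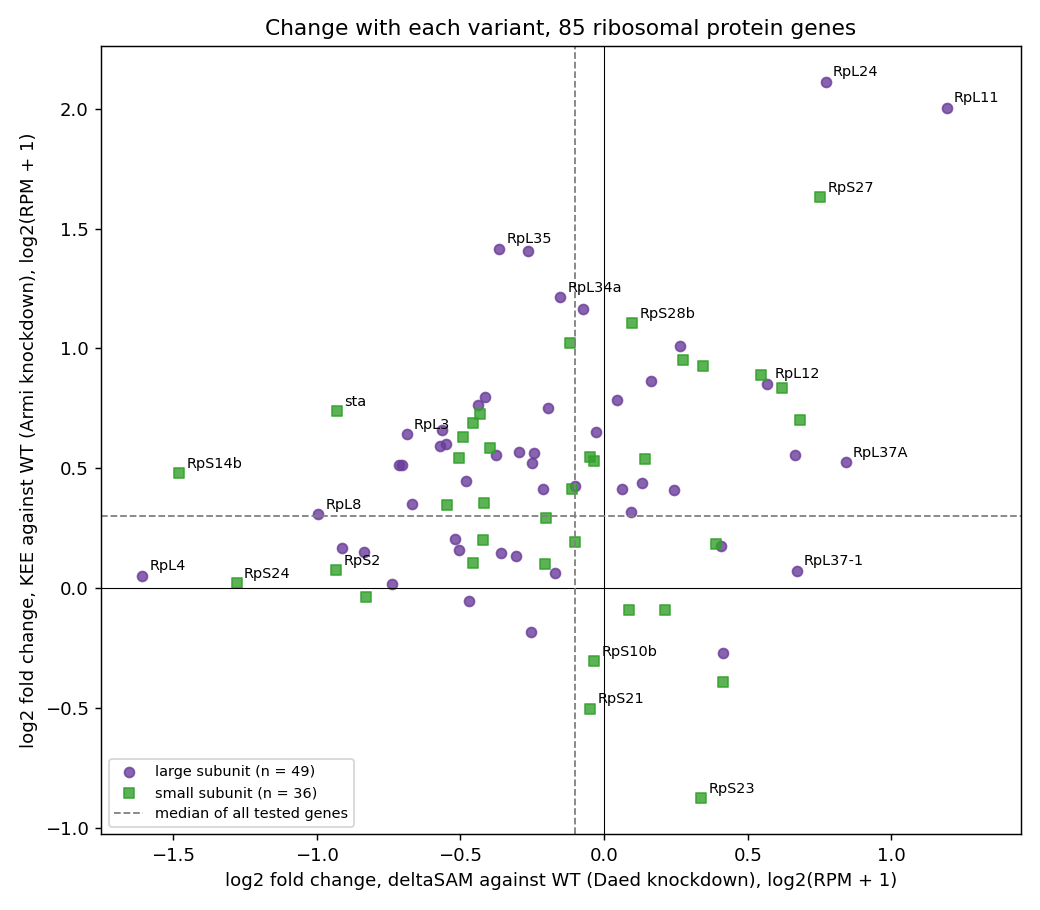
Log2 change with deltaSAM (horizontal) against log2 change with KEE (vertical) for 49 large subunit genes (circles) and 36 small subunit genes (squares); dashed lines mark the median of all tested genes at -0.10 and 0.30. Most points lie above 0 on the vertical axis and on both sides of 0 on the horizontal axis, and no labelled member lies low on both.

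The changes with the variants were loosely related across the members, with Pearson's r = 0.29 and Spearman's rho = 0.22 over 85 genes, where the same measures over the 8161 other tested genes were 0.24 and 0.21. These genes share their libraries and are not independent replicates. Neither gene span nor mean RPM went along with the change, with r from 0.0079 to 0.14 over the members.

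With deltaSAM 8 of 49 large subunit members rose (16.3%) and 15 fell (30.6%), with a median log2 change of -0.26. Of 36 small subunit members 5 rose (13.9%) and 12 fell (33.3%), with a median of -0.11, where 17.3% of all tested genes rose and 18.9% fell. With KEE 32 of 49 large subunit members rose (65.3%), with a median of 0.52, and 18 of 36 small subunit members rose (50.0%) and 4 fell (11.1%), with a median of 0.45, where 33% of all tested genes rose and 11.7% fell. In the limma fit of deposited RPM 0 large subunit members fell with KEE, and 1 did at an unadjusted p under 0.05. The count was 2 after centring, 3 with TMM factors and 4 with DESeq2, which is 4.08%, 6.12% and 8.16%. Of all genes tested in those settings 20.4%, 22.0% and 21.1% fell. The count was 1 on the gene-table total, with edgeR on library sizes, with the filter of 10 RPM and with the Armi libraries alone. Of all tested genes 15.0% fell on the gene-table total, 14.2% with edgeR on library sizes and 13.9% with the Armi libraries alone. With a library left out the count was 0 or 1. The small subunit median with deltaSAM turned to 0.11 when libraries were centred on the median gene, where the median of all tested genes was also 0.11. No test of the subunits against each other was made.

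The summed level of the large subunit was 2515 RPM ± 30.9 in Daed WT, 2372 ± 101 in deltaSAM, 2550 ± 98.6 in Armi WT and 4074 ± 97.2 in KEE. The small subunit summed to 1800 ± 46.7, 1602 ± 62.8, 1876 ± 64.6 and 2481 ± 86.4 in the same order. The ratio of large to small within a library is free of that library's scaling. It was 1.40 ± 0.024 in Daed WT and 1.48 ± 0.0049 in deltaSAM, and 1.36 ± 0.0056 in Armi WT and 1.64 ± 0.024 in KEE, and the libraries of each variant lay above those of its WT. The ratio was also taken without RpL11 and RpL24, left out because of their large rises, which lowers it in the variant groups by construction. It was then 1.29 ± 0.018 in Daed WT and 1.23 ± 0.013 in deltaSAM, so the order of these groups turned. In Armi WT it was 1.24 ± 0.014 and in KEE 1.28 ± 0.0065, and every KEE library still lay above every Armi WT library.

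**Figure D4:**
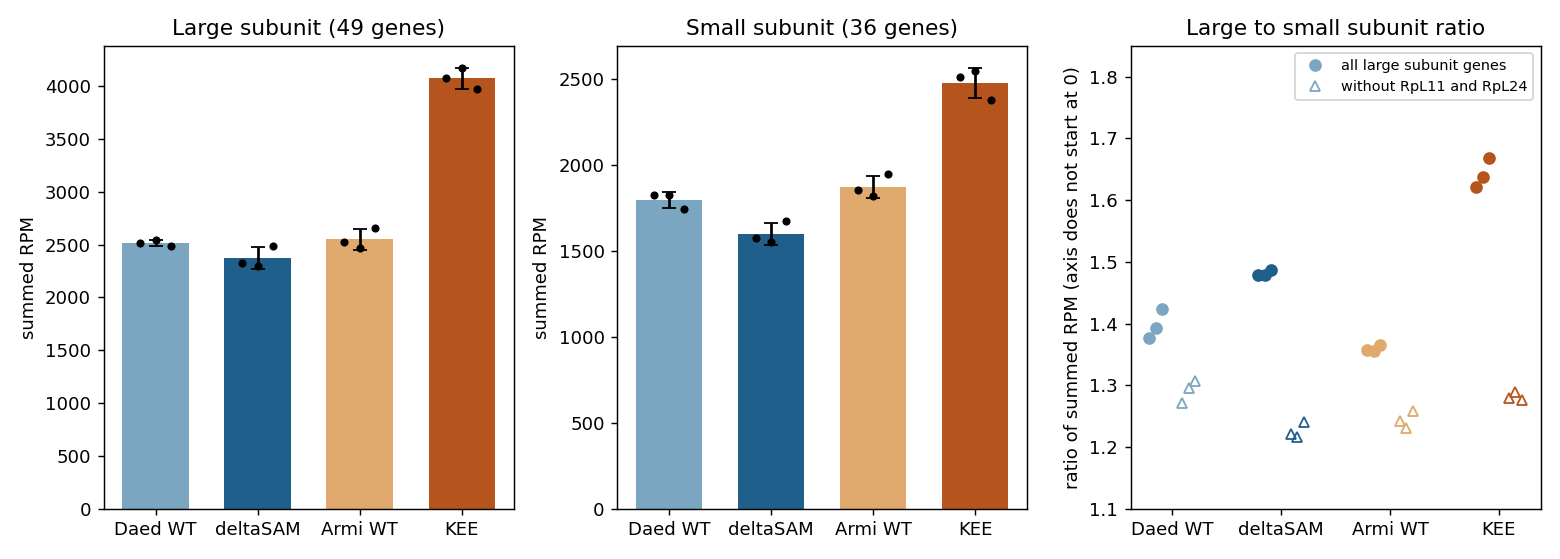
Summed RPM of the large subunit (left) and small subunit genes (middle) by group, as bars for the mean of 3 libraries with SD and points for the libraries, and the ratio of large to small in each library (right) for all members (circles) and without RpL11 and RpL24 (triangles). The KEE bars are the highest, and the ratios of 1.48 in deltaSAM and 1.64 in KEE drop to 1.23 and 1.28 without these genes.

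Genes of like mean RPM were the tested genes outside the 85 in the same of 20 equal bins by mean RPM, each bin weighted by its number of members. With deltaSAM 30.4% of them rose and 22.9% fell, where 15.3% of the members rose and 31.8% fell, and the like genes had a median log2 change of 0.06 against -0.21. The members had the smaller share of rises and the larger share of falls under all 6 scalings. With KEE 52.9% of the like genes rose and 17.2% fell, where 58.8% of the members rose and 4.71% fell, and the medians were 0.50 and 0.51. The members' share of falls was the lower one under all 6 scalings. Their share of rises was the higher one on deposited RPM and with edgeR on library sizes, and the lower one in the other 4, for instance 25.9% against 38.5% on the gene-table total and 21.2% against 35.7% with DESeq2. These shares are descriptions with no test.

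**Figure D5:**
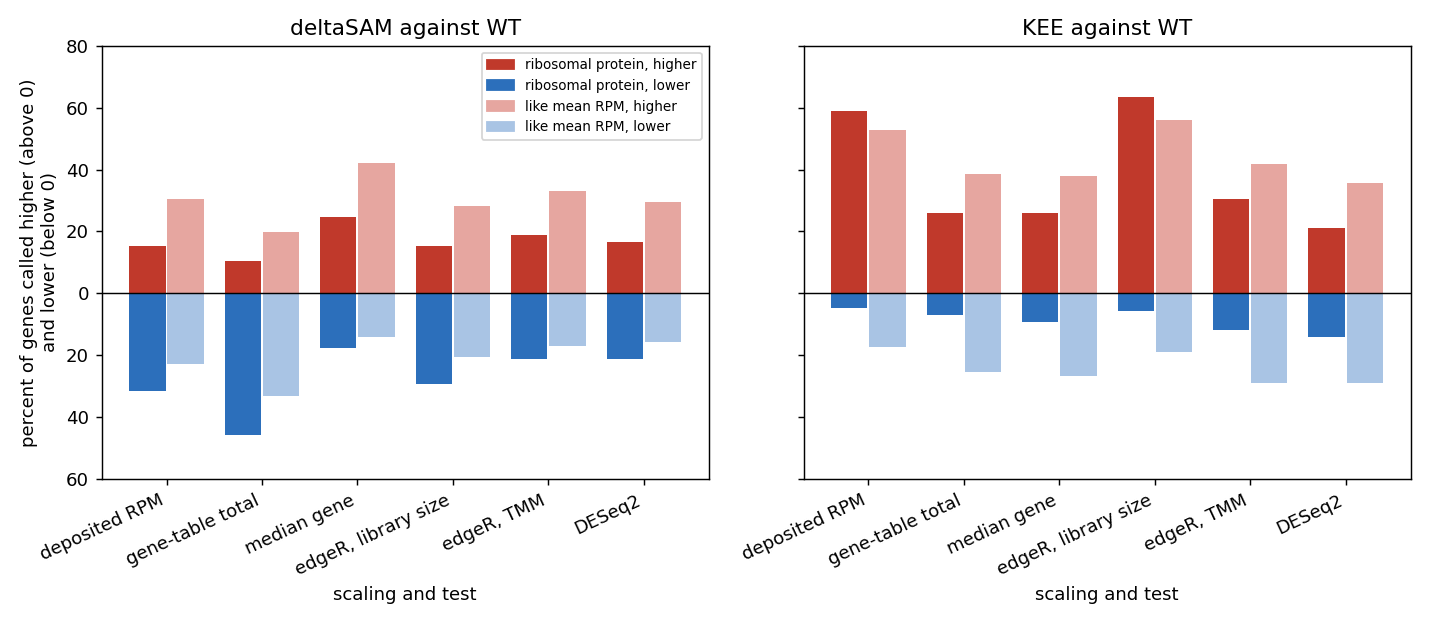
Percent of genes called higher (above 0) and lower (below 0) with deltaSAM (left) and KEE (right) under 6 scalings and tests, for the 85 members (dark) and for genes of like mean RPM (pale). The dark bars reach less high than the pale ones with deltaSAM and less low with KEE in all 6.

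Many members overlap other genes, and a read in shared bases may belong to either. By RefSeq spans 46 members overlap at least 1 other gene, and 29 of them host 76 snoRNA genes in their spans. Of these snoRNA genes 19 passed the filter, and 2 were higher with deltaSAM, 1 higher and 1 lower with KEE. Of all tested genes 17.3% rose and 18.9% fell with deltaSAM, and 33% and 11.7% did with KEE. None of these snoRNA genes was called together with its host in the same comparison, but few were called. Among other tested genes inside a member, CR42491 in RpL22 and Ip259 in RpS27A were called higher with KEE, as were their hosts. Uhg7 in RpL23A and CR46364 in RpS27 were not called with KEE. RpL27 shares 158 bases with Idh3g, which had 775 RPM in Armi WT and 459 in KEE, far more than RpL27 itself. RpL23A holds the whole of the snoRNA host gene Uhg7, which had 7.19 RPM in Daed WT and 16.5 RPM in deltaSAM, a rise in mean level (adjusted p = 0.0022), while RpL23A was not called there.

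Genes for making ribosomes were also sources. The list of 60 symbols also holds regulators such as Xrp1, which enter its counts, and 48 symbols matched the table and 47 passed the filter. With deltaSAM 8 rose (17.0%) and 10 fell (21.3%), with a median of -0.34, close to the 17.3% and 18.9% of all tested genes. With KEE 17 rose (36.2%) and 3 fell (6.38%), with a median of 0.47, against 33% and 11.7% of all tested genes. Xrp1, a transcription factor induced in cells with a reduced dose of a ribosomal protein gene, gave 812 RPM ± 62.4 in Daed WT and 553 ± 23.5 in deltaSAM (-0.55, adjusted p = 9.85e-07), and 690 ± 3.91 in Armi WT and 1589 ± 8.83 in KEE (1.20, adjusted p = 5.12e-14). Its order is that of sta and RpL3. Mtr4, a helicase of the nuclear exosome, took the opposite order, with 51.8 ± 0.223 and 111 ± 7.10 in the Daed knockdown (1.08, adjusted p = 4.11e-08) and 56.9 ± 5.96 and 33.1 ± 3.29 in the Armi knockdown (-0.76, adjusted p = 5.11e-06). Nop60B, the pseudouridine synthase of box H/ACA particles, rose with both, by 0.77 (adjusted p = 4.48e-06) and 1.00 (adjusted p = 1.85e-08). Nop56 of box C/D particles rose by 0.39 with deltaSAM, near the threshold (adjusted p = 0.0444), and by 1.69 with KEE (adjusted p = 1.55e-10). Nopp140, a nucleolar scaffold protein, fell with KEE from 1729 to 868 RPM. CG4364 fell with deltaSAM from 33.4 to 12.8 RPM.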

How the data were processed

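The deposited gene table gave RPM, scaled to the reads of a library, for 17469 genes in 12 libraries, per the file headers, and 1 read steps gave whole reads within 0.01 for 100% of values. The submitters' processing notes name the tools HTSeq and STAR and the builds dm6 and BDGP6. Their versions, strand and the treatment of overlapping genes are not given in the sources used here. Symbols (17340 genes) came from a separate list of gene names, and spans from the RefSeq gene table of the same assembly. The transposon table was not used here.

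Genes with at least 1 RPM in at least 3 libraries were tested with limma-trend on log2(RPM + 1). Sums, ratios and shares were described with no test. Recovered read counts served edgeR (library size and TMM) and DESeq2 as alternatives. Others were a replicate block, each library left out, 1 experiment alone, scaling to gene-table totals, centring each library on its median gene, a filter of 10 RPM or none, and a pseudocount of 0.1 or 10. The fit was tested on simulated data. Members and lists were chosen with earlier results of these data known.

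Named members were the up to 10 largest rises and falls of each comparison past the threshold whose libraries did not overlap, the 5 highest and 3 lowest of each subunit by mean RPM, RpLP0, RpLP1, RpLP2, sta, RpS27A, RpL40, RpS6, RpS3, RpL5, RpL11 and all paralogues, and up to 5 each way for the difference. For ribosome production genes they were taken from the first 6 by p in each comparison, and not all of these are reported here. RpL10, RpL21, RpL23A, RpL27 and RpL38 are named outside this rule, for a level or an overlap seen in the data. Results of some members that enter the counts and sums are not reported here. The tools were DESeq2 1.42.0, edgeR 4.0.16 and limma 3.58.1 in R 4.3.3, with matplotlib 3.10.9, scipy 1.17.1, pandas 2.3.3 and numpy 2.4.6 in Python 3.11.15.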

Additional observations from a re-analysis of the deposited data

Results flagged for a closer look

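In the 9 members given here the change with KEE differed from the change with deltaSAM by the test of that difference in limma, with Benjamini-Hochberg adjustment over all tested genes. The KEE change was the higher one for RpL4 by 1.66 on the log2 scale (SE 0.15, adjusted p = 6.24e-10), for sta by 1.67 (SE 0.17, adjusted p = 2.12e-09) and for RpL3 by 1.33 (SE 0.16, adjusted p = 7.48e-08). It was also higher for RpS20 by 1.12 (adjusted p = 3.75e-07) and for RpL7A by 1.22 (adjusted p = 6.98e-07). It was the lower one for RpS23, with a difference of -1.22 (SE 0.24, adjusted p = 0.000122). RpL19 gave -0.69 (adjusted p = 0.00144), with 66.7 RPM in Daed WT, 88.9 in deltaSAM, 102 in Armi WT and 83.8 in KEE. RpL37-1 gave -0.60 (adjusted p = 0.00626), and its levels were 61.7, 99.4, 96.6 and 101 RPM in that order. RpS21 gave -0.45 (adjusted p = 0.0276), a call lost without replicate 2 of Daed WT, replicate 1 of deltaSAM, replicate 2 of Armi WT or replicate 1 of KEE.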

How the results depend on the processing

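Among 165 results on named members, 107 were called, 64 of these were kept under every alternative that gave them a value, 22 to 24 of them by result, 43 were lost under at least 1 and 4 turned direction. Scaling moved the counts most, and the cause was not tested. Member rises and falls with deltaSAM were 21 and 15 centred on the median gene, where 24.7% and 11.2% of all tested genes rose and fell. With KEE they were 22 and 8 centred, 26 and 10 with TMM and 18 and 12 with DESeq2, and rises were 22 on the gene-table total. Of all tested genes 20.2% and 20.4%, 25.2% and 22.0%, and 19.4% and 21.1% did so with KEE, and 18.3% rose on the gene-table total. For the difference they were 20 and 11 centred, 29 and 9 with TMM and 21 and 9 with DESeq2. The shares of all tested genes there were 12.9% and 20.3%, 16.9% and 17.3%, and 15.5% and 19.6%, the last over 6806 genes.

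The median of the large subunit with deltaSAM was -0.041 centred and -0.47 on the gene-table total. With KEE it was 0.16 centred, 0.20 on the gene-table total, 0.18 with TMM, 0.10 with DESeq2 and 0.39 with a pseudocount of 10. For the difference it was 0.20 centred, 0.36 with TMM, 0.30 with DESeq2 and 0.64 with a pseudocount of 10. The median of the small subunit with deltaSAM was 0.11 centred, -0.31 on the gene-table total, -0.0063 with TMM and -0.028 with DESeq2. With KEE it was 0.094 centred, 0.16 on the gene-table total, 0.15 with TMM, 0.073 with DESeq2, 0.54 at 10 RPM and with a pseudocount of 0.1, and 0.30 with a pseudocount of 10. For the difference it was 0.025 centred, 0.48 on the gene-table total, 0.17 with TMM, 0.10 with DESeq2 and 0.45 with a pseudocount of 10. The median of all tested genes with deltaSAM was 0.11 centred, -0.30 on the gene-table total, -0.028 with TMM and -0.050 with DESeq2. With KEE that median was -0.053, 0.0020, 0.024 and -0.056 in the same order. For the difference the all-gene median was -0.12, 0.35, 0.11 and 0.050.

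Ribosome production rises with deltaSAM were 4 on the gene-table total and 5 with the Daed libraries alone, and falls were 5 with DESeq2 and 6 at 10 RPM. With KEE rises were 10 centred and on the gene-table total and 9 with DESeq2, and falls were 6 centred, 7 with TMM, and 5 with DESeq2 and with the Armi libraries alone. For the difference rises were 10 centred and with DESeq2 and 11 with TMM. With the Daed libraries alone 13.9% of all tested genes rose with deltaSAM, and with the Armi libraries alone 13.9% fell with KEE. With deltaSAM 10.4% rose on the gene-table total and 11.6% fell with DESeq2. With KEE 20.2% rose centred, 18.3% on the gene-table total and 19.4% with DESeq2. Falls with KEE were 20.4% centred, 22.0% with TMM and 21.1% with DESeq2. For the difference 12.9% rose centred, 15.5% with DESeq2 and 16.9% with TMM. The share at 10 RPM is not given here.

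Leaving out 1 library, or replicate 3 of deltaSAM and of Armi WT together, gave 12 to 15 member rises and 21 to 29 falls with deltaSAM, 41 to 51 and 3 to 5 with KEE and 43 to 53 and 4 to 5 for the difference. Without those libraries together the counts were 12 and 27, 49 and 5, and 52 and 5. With all 12 libraries they were 13 and 27, 50 and 4, and 47 and 5. There 17.3% and 18.9%, 33% and 11.7%, and 29.4% and 11% of all tested genes rose and fell. Shares of all tested genes with a library left out are not given here, so those counts describe the members only. The large subunit median ranged from -0.29 to -0.23, from 0.46 to 0.56 and from 0.72 to 0.91, and the small subunit median from -0.18 to -0.09, from 0.36 to 0.53 and from 0.54 to 0.69. Ribosome production rises ranged from 5 to 8, 11 to 19 and 14 to 20.

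The replicate block gave 13 rises and 27 falls with deltaSAM, 52 and 4 with KEE and 50 and 5 for the difference. Deviations of same-numbered libraries correlated at -0.0133 to 0.059, so the numbers were not taken as pairs.

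With KEE the sign turned for RpL15 (-0.0098), RpL37-1 (-0.36), RpL4 (-0.37), RpLP0 (-0.079), RpS15 (-0.32), RpS2 (-0.35), RpS24 (-0.41) and RpS27A (-0.063) with DESeq2, for RpL4 (-0.30), RpLP0 (-0.0035) and RpS2 (-0.28) centred, and for RpL37-1 (-0.28), RpL4 (-0.29), RpS2 (-0.27) and RpS24 (-0.32) with TMM. For the difference it turned centred for RpS15 (-0.0072) and RpS25 (-0.55). Depth limits the second copies and RpL24-like, where a group mean rests on a few reads.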
